A study of Mus musculus with 12 samples.

Results

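Transcripts of neutrophils, the short-lived granulocytes that circulate in blood and enter inflamed tissue, were followed in the follicle wall and around the oocyte in 12 RNA-seq libraries. The 9 transcripts were S100a8, S100a9, Clec4d, Retnlg, Cxcr2, Csf3r, Mmp8, Mmp9 and Itgam, out of 29101 genes listed for mural granulosa cells (MGCs, the inner lining of the follicle wall) and 33137 listed for cumulus cells (granulosa cells that enclose the oocyte). They were chosen on their values in MGCs, where the group was lower in the knockout. Their difference between the genotypes in MGCs is therefore given as a description without a test. Only cumulus cells, whose values the rule of choice did not use, were tested. The members were still chosen with earlier results of these data known, and whether both cell types came from the same animals was not stated. The cumulus cell test is therefore not independent support for the difference in MGCs. All 9 were found by symbol in both tables. Both cell types came from WT C57/BL6 mice and from Sphk1-/-; Sphk2 fl/fl; Fshr-Cre (Sphk1/2gc-/-) mice. The study describes immature females primed with eCG, and the labels place all 4 groups at 2 h post-hCG, a stand-in for the LH surge, with 3 libraries per group. Sphk1 and Sphk2 make sphingosine 1-phosphate. By genotype, Sphk1 is absent from every cell of the knockout mice, leukocytes included, whereas the Fshr promoter directs the loss of Sphk2 to granulosa cells, so that in these data an effect of one cell compartment cannot be told apart from an effect of another. Whether animals were pooled for a library, and whether the 3 libraries of a group came from separate animals, was not stated, so the errors measure only the spread between these libraries.

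Neutrophils are formed in the bone marrow under granulocyte colony-stimulating factor, which acts through the receptor encoded by Csf3r. They leave for blood and tissue along gradients of CXC chemokines that bind Cxcr2. Their granule proteins are transcribed in an order: those of primary granules in early precursors, those of secondary granules later and those of gelatinase granules last, while S100a8 and S100a9 transcripts stay abundant in the mature cell. Ovulation has features of inflammation, and leukocytes gather in the vascular theca outside the follicle wall around the time of the LH surge. In bulk RNA, fewer neutrophils and less of these transcripts per neutrophil cannot be told apart.

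Sequences upstream of the 4 members with the highest mean level in WT MGCs are shown, because these carry most of the neutrophil signal. Each is the 250 bases before the RefSeq start site (GRCm38.p6), read along the gene's strand. RefSeq promoters were found for 8 of the 9 members, that of Mmp9 being the exception. Capitals mark a match, on either strand, to TTGCNNAA (a C/EBP site), GAGGAA (the core of a PU.1 site, TTCCTC on the other strand) or, for a TATA box, the letters TATAAA. The windows are chr3:90668821-90669070 on the plus strand for S100a8, chr3:90695722-90695971 on the minus strand for S100a9, chr16:48872358-48872607 on the plus strand for Retnlg and chr9:7558179-7558428 on the plus strand for Mmp8.
S100a8: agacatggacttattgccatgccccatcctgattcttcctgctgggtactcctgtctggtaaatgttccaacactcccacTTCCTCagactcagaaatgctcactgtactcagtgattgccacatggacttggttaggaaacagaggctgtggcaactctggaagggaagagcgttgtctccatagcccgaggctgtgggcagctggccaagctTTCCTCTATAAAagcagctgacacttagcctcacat
S100a9: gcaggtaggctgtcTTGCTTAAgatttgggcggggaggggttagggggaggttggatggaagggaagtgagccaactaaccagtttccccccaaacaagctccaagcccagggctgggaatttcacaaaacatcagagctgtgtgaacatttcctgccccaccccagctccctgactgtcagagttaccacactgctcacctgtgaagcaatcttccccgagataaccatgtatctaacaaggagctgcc
Retnlg: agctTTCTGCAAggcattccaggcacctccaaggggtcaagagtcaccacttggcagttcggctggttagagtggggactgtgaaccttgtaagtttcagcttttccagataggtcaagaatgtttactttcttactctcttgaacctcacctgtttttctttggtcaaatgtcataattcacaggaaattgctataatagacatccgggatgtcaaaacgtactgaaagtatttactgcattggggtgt
Mmp8: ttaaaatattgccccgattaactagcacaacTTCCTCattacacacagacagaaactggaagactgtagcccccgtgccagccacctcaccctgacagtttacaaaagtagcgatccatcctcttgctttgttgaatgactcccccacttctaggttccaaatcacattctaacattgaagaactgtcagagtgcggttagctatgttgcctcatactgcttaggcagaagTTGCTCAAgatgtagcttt
C/EBP and PU.1 are transcription factors of the granulocyte lineage. The C/EBP letters were found in the windows of 3 of the 8 members (S100a9, Retnlg and Mmp8), against 9.56% of 32851 promoters of the same kind. The PU.1 core was found in 6 members (S100a8, Clec4d, Cxcr2, Csf3r, Mmp8 and Itgam), against 23.3% of all promoters. A TATA box stood from −30 to −25 in S100a8 alone, directly after a PU.1 core from −36 to −31, and was found in 12.4% of all promoters. The AP-1 letters TGANTCAN were found in 0 of the 8 windows and in 6.75% of all promoters. In GENCODE M21 the S100a8 gene begins inside this window, so that part of it can be transcribed. These matches describe letters in a window and were not tested as binding sites.

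The authors deposited FPKM, fragments divided by exon length and by the size of the library. Steps in the values corresponded to 16100365 to 19761604 reads per library, and levels at or below 3 reads in a library are treated here as not distinguishable from 0 at this depth. Intervals and limits of this kind cover counting error only. Granulosa cell markers were high in both cell types, with Inha (the inhibin alpha subunit) at a mean of 8338 FPKM in WT MGCs and 1630 FPKM in WT cumulus cells. Among MGC libraries, Sphk1/2gc-/- library 3 stood apart: its correlations with the other 5 libraries were 0.912 to 0.939, whereas every other library had a best partner at 0.969 or higher. Ratios of the members' means in MGCs are therefore also given without knockout library 3, with all 3 WT libraries kept. The MGC fit was also made over libraries 1 and 2 of each genotype. The targeted gene Sphk1 had levels of 1.68, 1.88 and 0.460 FPKM in WT MGC libraries 1 to 3, against 0.432, 0.557 and 0.104 FPKM in the knockout MGC libraries, so that WT library 3 lay within the knockout range. In cumulus cells it went against the labels, with 7, 6 and 8 reads in WT and 7, 43 and 51 reads in the libraries labelled Sphk1/2gc-/-, so genotype directions in cumulus cells rest on the labels alone. Sphk2, the other targeted gene, overlapped between the genotypes in both cell types, at 5.26, 5.86 and 5.18 FPKM in WT, against 4.51, 4.68 and 6.29 FPKM in the knockout MGC libraries. Its level was taken over all exons, the deleted part not being measured on its own, so it does not check the labels. Sphk1 was also taken over all exons, so reads that a targeted allele may leave cannot be told apart from those of an intact gene.

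S100a8 and S100a9 encode the calcium-binding subunits of calprotectin, a dominant protein of the neutrophil cytosol. The genes lie 22596 bases apart on chromosome 3, S100a8 at 90668978 to 90670035 on the plus strand and S100a9 at 90692632 to 90695721 on the minus strand (GRCm38). S100a9 was the most abundant member, with 139, 112 and 90.9 FPKM in WT MGC libraries 1 to 3 against 16.5, 20.2 and 4.56 FPKM in Sphk1/2gc-/- MGC libraries 1 to 3. Every knockout library lay below every WT library. The means were 114 ± 23.9 and 13.8 ± 8.19 FPKM (SD, n = 3), a level 8.27-fold lower in Sphk1/2gc-/- MGCs, or 6.19-fold lower when knockout library 3 was left out. S100a8 was at 53.3, 44.7 and 36.5 FPKM in WT, against 9.27, 10.9 and 2.15 FPKM in Sphk1/2gc-/- MGCs, again without overlap. Its means of 44.8 ± 8.40 and 7.44 ± 4.65 FPKM (SD, n = 3) differed 6.03-fold, and 4.45-fold without knockout library 3. Together the pair made up 71.3% to 79.1% of the summed FPKM of the 9 members in each MGC library. The ratio of S100a9 to S100a8 was 2.60, 2.50 and 2.49 in WT and 1.78, 1.86 and 2.12 in Sphk1/2gc-/- MGCs, so the subunit transcripts did not differ between the genotypes by the same factor.

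Retnlg, on chromosome 16 at 48872621 to 48874496, encodes a secreted resistin-like protein found in bone marrow and neutrophils. Its level was 30.3, 23.1 and 19.6 FPKM in WT, against 3.88, 3.59 and 1.27 FPKM in Sphk1/2gc-/- MGCs. The means of 24.4 ± 5.46 and 2.92 ± 1.43 FPKM (SD, n = 3) differed 8.35-fold, close to the value for S100a9, and 6.52-fold without knockout library 3. Clec4d, on chromosome 6 at 123262111 to 123275265, encodes a C-type lectin receptor of myeloid cells for microbial glycolipids. It was at 2.43, 2.20 and 2.67 FPKM in WT, against 0.184, 0.222 and 0.138 FPKM in Sphk1/2gc-/- MGCs. Of the 9 members it had the highest ratio of WT to knockout means, 13.4-fold, and it was the member for which knockout library 3 mattered least, at 12.0-fold without it. The knockout values rested on 5, 6 and 4 reads, against 64, 59 and 72 reads in WT.

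The receptors for the signals that recruit neutrophils were less abundant than S100a9, S100a8 and Retnlg. Cxcr2, on chromosome 1 at 74153989 to 74161246, was at 1.75, 1.70 and 1.48 FPKM in WT MGCs, against 0.581, 0.310 and 0.182 FPKM in Sphk1/2gc-/- MGCs. The ratio of its means was 4.60, and 3.69 without knockout library 3. Csf3r, on chromosome 4 at 126024550 to 126044440, was at 4.47, 4.11 and 2.73 FPKM in WT, against 1.13, 1.29 and 0.123 FPKM in the knockout. Here library 3 was lowest in both genotypes, and knockout library 3 had 8 reads against 69 and 79 in the other 2 knockout libraries. The ratio of the Csf3r means was 4.45, and 3.11 without that library.

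Mmp8 and Mmp9 encode neutrophil collagenase and gelatinase B, which are stored in secondary and gelatinase granules and cut collagens of the extracellular matrix. Mmp8, on chromosome 9 at 7558456 to 7568485, was at 6.78, 7.13 and 4.92 FPKM in WT, against 2.29, 2.14 and 0.593 FPKM in Sphk1/2gc-/- MGCs, a ratio of means of 3.75. Mmp9, on chromosome 2 at 164940780 to 164955850, was at 5.02, 3.82 and 2.01 FPKM in WT, against 0.567, 0.517 and 0.328 FPKM in the knockout, a ratio of 7.69. Without knockout library 3 the ratios were 2.83 for Mmp8 and 6.68 for Mmp9. The WT libraries spread more widely for Mmp9 than for any other member, yet the lowest of them still lay above every knockout library.

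Itgam, on chromosome 7 at 128062640 to 128118491, encodes the integrin chain CD11b, which pairs with the Itgb2 chain and is shared by neutrophils, monocytes, macrophages and natural killer cells. It differed from the other 8 members. Its level was 0.640, 0.415 and 0.295 FPKM in WT, against 0.599, 0.576 and 0.0661 FPKM in Sphk1/2gc-/- MGCs, so the genotypes overlapped, and knockout libraries 1 and 2 lay above WT libraries 2 and 3. The ratio of the WT to the knockout mean was 1.09 with all libraries and 0.766 without knockout library 3. Its mean stayed below the 0.5 FPKM set for the fit over the 6 libraries. Its exons overlap those of Gm49368 on the same strand, so reads of the overlap cannot be assigned to one of them.

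**Figure D1:**
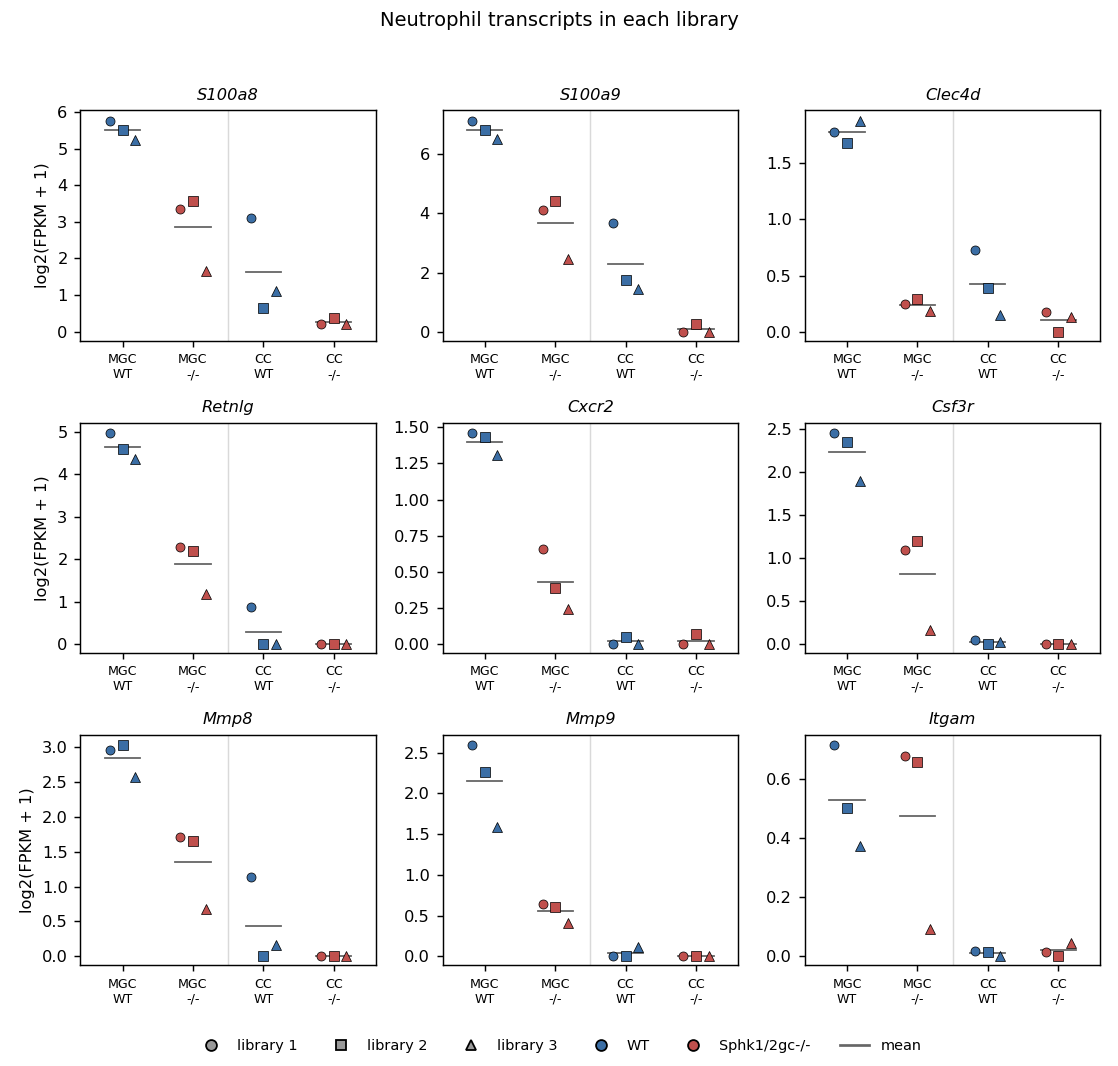
Level of the 9 neutrophil transcripts as log2(FPKM + 1) in each library, by cell type and genotype (CC, cumulus cells; -/-, Sphk1/2gc-/-; horizontal lines, group means; each panel has its own vertical axis). In MGCs every Sphk1/2gc-/- library lies below every WT library for 8 members and the genotypes overlap for Itgam. Most cumulus cell values are near 0, with WT library 1 highest for S100a8, S100a9, Clec4d, Retnlg and Mmp8.

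Across the 9 members, the summed level was 243, 199 and 161 FPKM in WT MGC libraries 1 to 3, against 35.0, 39.8 and 9.41 FPKM in Sphk1/2gc-/- libraries 1 to 3, the latter being 17.4%, 19.8% and 4.68% of the WT mean. For 8 of 9 members every knockout library was below every WT library, an arrangement seen for 9.17% of the 15279 genes tested in MGCs. As this difference chose the members, nothing is read from that count. Knockout library 3 was the lowest knockout library for all 9 members, and WT library 3 the lowest WT library for 8 of them. WT library 1 was the highest WT library for 7. The order of the libraries was thus shared by most members within each genotype too.

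In the fit over the 6 MGC libraries, in which differences are in log2(FPKM + 1), 8 members passed the filter on low values, with a median difference of −1.57 against −0.0034 over all genes tested. Clec4d, Cxcr2 and Mmp9 passed that filter only through WT, which favours a difference in that direction, and Itgam did not pass it. Nothing is therefore read from the median. The differences were −3.15 for S100a9 (SE 0.490), −2.75 for Retnlg (SE 0.323), −2.64 for S100a8 (SE 0.489), −1.60 for Mmp9 (SE 0.271), −1.54 for Clec4d (SE 0.149), −1.50 for Mmp8 (SE 0.311), −1.42 for Csf3r (SE 0.315) and −0.97 for Cxcr2 (SE 0.172). This scale understates the change of transcripts near 1 FPKM, which is why Clec4d ranks below S100a9 here and above it as a ratio of means. Over libraries 1 and 2 of each genotype, all 9 passed the filter. Both fits used the difference that chose the members, so no calls are given for them. The size of each difference moved little between the fits, from −2.64 to −2.17 for S100a8 and from −1.60 to −1.81 for Mmp9, whereas the SE of S100a8 went from 0.489 to 0.120. For Itgam the difference over libraries 1 and 2 was 0.06 (SE 0.146).

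**Figure D2:**
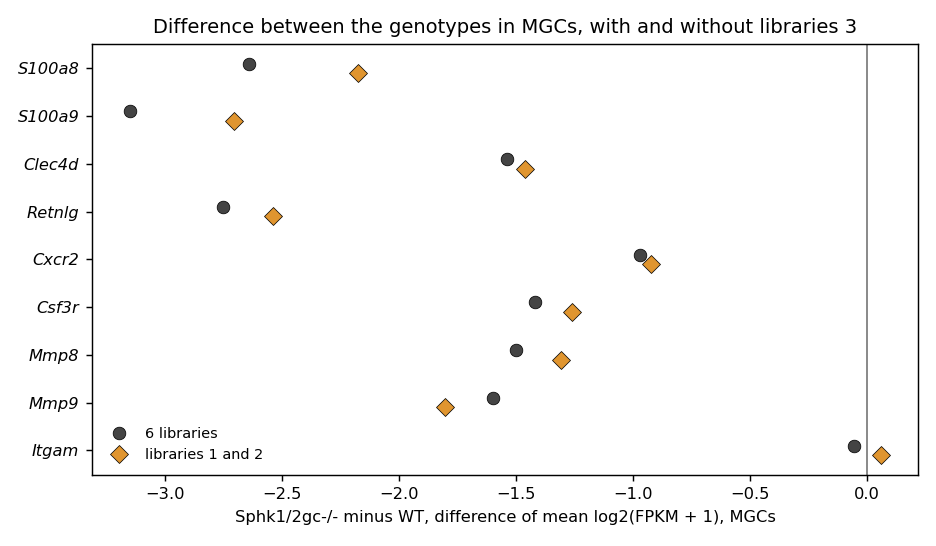
Difference between Sphk1/2gc-/- and WT MGCs in mean log2(FPKM + 1) for the 9 members, from all 6 libraries (circles) and from libraries 1 and 2 of each genotype (diamonds). For 8 members both values lie between −0.92 and −3.15, and for Itgam both are near 0.

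The genes whose pattern over the 6 MGC libraries was most like that of the members were ranked by Pearson's r between log2(FPKM + 1) and the mean of the members' standardised profiles, among 12473 genes that averaged 1 FPKM or more. The members themselves, each of which is part of that mean, had r of 0.915 to 0.996 with it, apart from Itgam at 0.513. Outside the lists the highest was Hp (haptoglobin, a haemoglobin-binding protein that neutrophils also store in granules), with r of 0.996. Hp was at 14.3, 12.5 and 9.97 FPKM in WT, against 3.12, 2.50 and 0.723 FPKM in Sphk1/2gc-/- MGCs, and at 0.619 FPKM or less in every cumulus cell library. The next 4 were Arrdc3 (0.995), Wsb1 (0.995), Npr1 (0.994) and Fam161a (0.994). Of these, Arrdc3, at 220 to 235 FPKM in WT, against 165 to 193 FPKM in Sphk1/2gc-/- MGCs, and Wsb1, at 72.6 to 79.3 and 58.4 to 66.2 FPKM, differed far less between the genotypes than the members did. Npr1, which encodes a natriuretic peptide receptor, was at 66.0 to 86.7 FPKM in WT, against 16.7 to 37.8 FPKM in Sphk1/2gc-/- MGCs. With 6 libraries that share genotype and library quality, such correlations only describe these libraries.

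Other transcripts of neutrophils were examined in lists chosen with results of these data known. Because they share the MGC difference that picked the members, their MGC values, calls and counts are also a description. Nothing is read from how many were called. A gene was called where the adjusted p was 0.05 or less and the fold change at least 2, which held for 0.0327% (lower) of the 15279 genes tested over 6 MGC libraries and for 1.85% (lower) of the 15433 tested over libraries 1 and 2. Of 14 granule protein genes, the 4 of primary granules (Mpo, Elane, Prtn3 and Ctsg) had at most 6 reads in every MGC library of both genotypes. Transcripts of the later granules were present. Ngp (neutrophilic granule protein) was at 25.8, 20.8 and 9.95 FPKM in WT, against 1.54, 1.55 and 0.181 FPKM in Sphk1/2gc-/- MGCs. Ltf (lactoferrin, an iron-binding protein of secondary granules) was at 7.14, 5.23 and 2.72 FPKM in WT, against 0.530, 0.531 and 0.0321 FPKM in the knockout. Both sets of values kept the genotypes apart, with ratios of means of 17.3 and 13.8 that exceed those of all 9 members. Lcn2 (lipocalin 2, which binds bacterial siderophores) differed less, at 9.92, 7.13 and 6.04 against 2.38, 3.06 and 1.52 FPKM. Of the 9 granule genes tested over 6 libraries, 7 had every knockout library below every WT library, against 9.17% of all genes tested. Among them Ltf, Mmp25 and Pglyrp1 passed the filter on low values only through WT, which favours a difference in that direction. Over libraries 1 and 2, 6 of 10 granule genes were called lower (Ngp, Ltf, Camp, Lcn2, Cd177 and Pglyrp1), against 1.85% of all genes. Over 6 libraries Ngp was not called (limma adjusted p = 0.0744) and was called lower with the replicate number as a block (limma adjusted p = 0.0313). The exceptions were genes that macrophages also express: Lyz2 (lysozyme), at 98.6, 80.1 and 27.3 FPKM in WT, against 42.2, 55.1 and 8.49 FPKM in Sphk1/2gc-/- MGCs, and Chil3, at 10.2, 8.33 and 3.05 against 6.25, 11.1 and 0.237 FPKM, overlapped between the genotypes.

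Of 27 listed genes for surface and signalling proteins of mature neutrophils, 26 were tested in MGCs. Their median difference was −0.73, 17 had every knockout library below every WT library, against 9.17% of all genes, and Asprv1 (an aspartic protease) was called lower over 6 libraries. Asprv1 was at 4.90, 5.16 and 6.94 FPKM in WT, against 0.648, 0.725 and 0.787 FPKM in the knockout, where library 3 was the highest rather than the lowest of the 3. With the replicate number as a block Asprv1 was not called (limma adjusted p = 0.0843), and its call was lost in 9 of 14 alternatives, among them those that left out any 1 library but knockout library 3. Over libraries 1 and 2, 7 were called lower, namely Asprv1, Clec4e, Stfa2l1, Wfdc21, Ifitm6, Trem3 and Ly6g, against 1.85% of all genes. These calls and counts only describe the MGC difference that these genes share with the members. At least Clec4e and Ly6g passed the filter on low values only through WT, which favours a difference in that direction. Clec4e, which encodes the receptor Mincle that pairs with the Clec4d product, was at 2.88, 2.39 and 2.59 FPKM in WT, against 0.475, 0.499 and 0.189 FPKM in Sphk1/2gc-/- MGCs. Ly6g, the antigen by which mouse neutrophils are commonly sorted, was at 1.74, 0.886 and 0.693 FPKM in WT, at 0.188 FPKM in knockout library 1 and at 0 in knockout libraries 2 and 3. The most abundant genes of this list in MGCs, Ccrl2 and Slfn4, were not called. Ccrl2 (a chemokine-binding receptor) was at 31.2, 30.3 and 46.4 against 23.3, 24.6 and 14.7 FPKM, and Slfn4 (an interferon-induced gene) was at 15.6, 13.0 and 26.5 against 15.6, 15.7 and 17.6 FPKM. The 6 genes of the phagocyte oxidase, which neutrophils and macrophages both use, had a median difference of −0.33. Its most abundant subunit, Cyba, was at 14.2 to 19.4 FPKM in WT, against 16.3 to 19.0 FPKM in Sphk1/2gc-/- MGCs.

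Markers of other blood and ovarian cells moved in several directions between the same MGC libraries, and their part in the values of the neutrophil transcripts was not tested. These lists too were chosen with results of these data known, so nothing is read from how many were called. The summed level of 3 pan-leukocyte genes (Ptprc, which encodes CD45, Coro1a and Laptm5) was 4.75 to 10.5 FPKM in WT, 12.6 and 13.4 FPKM in knockout libraries 1 and 2 and 2.12 FPKM in knockout library 3. The sum of 11 macrophage and monocyte genes was 22.1 to 55.3 FPKM in WT, against 90.4, 101 and 23.1 FPKM in knockout libraries 1 to 3. That of 9 T and NK cell genes was 1.27 to 3.25 FPKM in WT, against 17.7, 19.0 and 1.61 FPKM in the knockout. Knockout libraries 1 and 2 thus had the highest sums of these other leukocytes together with low neutrophil transcripts, whereas knockout library 3 was within the WT range for macrophages and for T and NK cells. Over libraries 1 and 2, C1qa, C1qb, C1qc and Fcgr1 of the 11 macrophage genes and Cd8a, Nkg7 and Gzma of 6 tested T and NK cell genes were called higher, against 1.24% of all genes. Over 6 libraries, where 0.00654% of all genes were called higher, 1 of 4 tested T and NK cell genes, Nkg7, had every knockout library above every WT library, as did 7.72% of all genes. Markers of B cells, eosinophils and mast cells were at summed levels of 0.865 FPKM or less in every MGC library.

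Red cell transcripts, which report blood in the sample, were lowest in library 3 of each genotype, as was the sum of the 9 members. Their sum over 5 genes was 367, 404 and 262 FPKM in WT MGCs, against 291, 230 and 30.6 FPKM in Sphk1/2gc-/- MGCs. Knockout library 1 had more red cell RNA than WT library 3, and 35.0 against 161 FPKM of the 9 neutrophil transcripts. The part of blood in the neutrophil values was not tested. Hbb-bs (adult beta globin) was at 189, 206 and 137 FPKM in WT, against 152, 124 and 16.4 FPKM in the knockout, so that the genotypes overlapped. The sum of 5 endothelial genes was 10.7 to 14.3 FPKM in WT, against 7.63 to 9.03 FPKM in Sphk1/2gc-/- MGCs, and for all 5 every knockout library was below every WT library, as for 9.17% of all genes tested. The 5 theca and stroma genes summed to 121 to 269 and 93.8 to 159 FPKM.

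**Figure D3:**
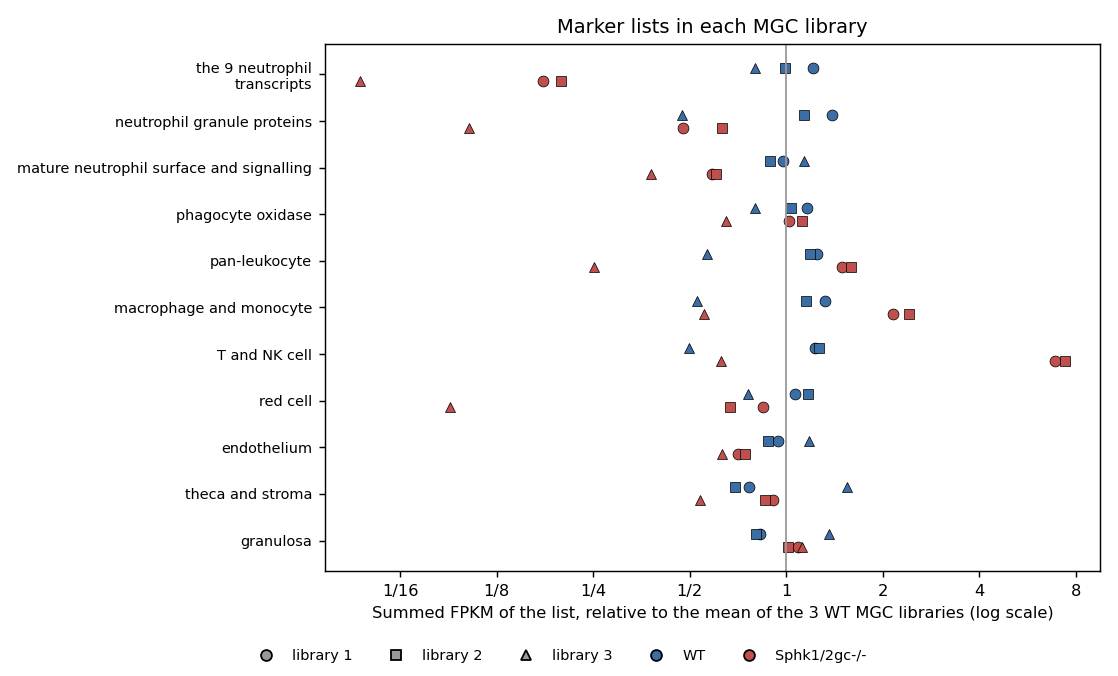
Summed FPKM of marker lists in each MGC library relative to the mean of the 3 WT libraries, on a log scale. The 9 neutrophil transcripts lie far below 1 in all 3 Sphk1/2gc-/- libraries (4.68% to 19.8% of the WT mean), the macrophage and T and NK cell sums lie above the WT range in knockout libraries 1 and 2 only, and the red cell sum is low mainly in knockout library 3.

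The ligands and partners of the members were taken from a list of 17 genes. It was chosen with results of these data known, so nothing is read from how many were called. Cxcr2 binds CXCL1, CXCL2, CXCL3 and CXCL5. In MGCs, Cxcl1 was at 12.4, 13.0 and 17.6 FPKM in WT, against 112, 98.0 and 3.33 FPKM in Sphk1/2gc-/- libraries 1 to 3. Knockout libraries 1 and 2 were thus far above, and knockout library 3 below, every WT library. Cxcl2 took the same order, at 0.968, 1.18 and 3.64 against 17.2, 9.91 and 0.107 FPKM. Cxcl5 was at 0.358, 0.832 and 0.732 against 3.45, 3.90 and 0.832 FPKM. Over libraries 1 and 2 these 3 were called higher, of 13 listed genes tested, against 1.24% of all genes. Knockout library 3, where Cxcr2 was lowest, was below every WT library for Cxcl1 and Cxcl2 and within the WT range for Cxcl5. Csf3, the ligand of the Csf3r product, had at most 14 reads in any MGC library. Itgb2, the partner of Itgam, was at 5.09, 3.59 and 2.10 against 3.50, 4.97 and 0.453 FPKM, an overlap like that of Itgam. Fcer1g, the signalling chain that carries the Clec4d product, was at 9.92, 8.46 and 4.48 against 9.85, 12.3 and 2.91 FPKM, and Timp1, an inhibitor of both metalloproteinases, at 53.2, 52.4 and 58.1 against 59.7, 63.4 and 21.6 FPKM. Selp (P-selectin, on which neutrophils roll along activated endothelium) was at 1.07, 0.689 and 1.37 FPKM in WT, against 0.241, 0.348 and 0.138 FPKM in the knockout, without overlap.

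In cumulus cells the members were low, and only S100a8 and S100a9 passed the filter on low values. Both passed it only through WT, which favours a difference in that direction, and their tests are read with that limit. S100a9 was at 11.7, 2.34 and 1.75 FPKM in WT libraries 1 to 3, against 0, 0.194 and 0 FPKM in those labelled Sphk1/2gc-/-. These values rest on 98, 22 and 16 reads against 0, 2 and 0, and the labelled genotypes did not overlap. The difference in log2(FPKM + 1) was −2.20 (SE 0.501), with a limma adjusted p of 0.0179 over all 12205 genes tested. Without WT library 1, which held most of the reads, it was −1.51 with a limma adjusted p of 0.00747. Over 14 alternatives the adjusted p ranged from 0.00464 to 0.0845, and the call was lost in 3 of them: without knockout library 3 (limma adjusted p = 0.0632), over libraries 1 and 2 (0.0586) and with no filter on low values (0.0845).

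S100a8 was at 7.61, 0.561 and 1.15 FPKM in WT cumulus cells, against 0.153, 0.292 and 0.150 FPKM in those labelled Sphk1/2gc-/-, on 85, 7 and 14 reads against 2, 4 and 2. Every labelled knockout library was again below every WT library, but the difference of −1.36 (SE 0.542) did not pass the test, with a limma adjusted p of 0.105. Without WT library 1 the difference was −0.61 (limma adjusted p = 0.0810). The adjusted p over the alternatives was 0.0472 to 0.304. Among all genes tested in cumulus cells, 3.85% were called lower and 4.19% higher, and every labelled knockout library was below every WT library for 24.1%.

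The other 7 members were not tested in cumulus cells. WT library 1 had 17 reads of Clec4d, 7.8 of Retnlg and 47 of Mmp8, whereas WT library 2 had 9, 0 and 0 and WT library 3 had 3, 0 and 5. In the libraries labelled Sphk1/2gc-/-, Clec4d had 4, 0 and 3 reads, and Retnlg, Mmp8, Mmp9 and Csf3r had 0 in each. Cxcr2, Csf3r and Itgam had at most 3 reads in each of the 6 cumulus cell libraries. The summed level of the 9 members was 22.0, 3.27 and 3.21 FPKM in WT, against 0.296, 0.535 and 0.279 FPKM in those labelled Sphk1/2gc-/-. WT library 1 therefore held most of the neutrophil RNA seen in cumulus cells. Its red cell sum over 4 genes was 26.8 FPKM, against 4.37 and 20.7 FPKM in WT libraries 2 and 3 and at most 1.78 FPKM in those labelled Sphk1/2gc-/-. WT library 3 thus had nearly the red cell level of WT library 1 with about the neutrophil level of WT library 2. Most of the red cell sum of WT library 2 was Alas2, and the globin genes overlapped between the labelled genotypes. The part of blood in the S100a9 difference was not tested.

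The levels of the members in MGCs and cumulus cells come from tables made separately, so they are set side by side without a test. Every WT MGC library was above every WT cumulus cell library for 9 of 9 members, and every Sphk1/2gc-/- MGC library was above every cumulus cell library so labelled for 9 of 9. For 5 members (Retnlg, Cxcr2, Csf3r, Mmp9 and Itgam) the lowest MGC library of either genotype was above the highest cumulus cell library. For the other 4 the exceptions were WT cumulus cells: S100a9 in WT cumulus library 1, at 11.7 FPKM, lay above Sphk1/2gc-/- MGC library 3, at 4.56 FPKM.

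The ligands of Cxcr2 differed between the labelled genotypes in cumulus cells too, and there all 3 libraries of a group took the same side. Cxcl1 was at 36.2, 30.6 and 44.3 FPKM in WT, against 148, 145 and 146 FPKM in those labelled Sphk1/2gc-/-, 3.95-fold higher, with a difference of 1.97 in log2(FPKM + 1) (SE 0.166, limma adjusted p = 0.000561). Cxcl5 was at 7.60, 7.26 and 10.6 against 29.5, 41.6 and 20.3 FPKM, a difference of 1.69 (SE 0.262, limma adjusted p = 0.00469). Cxcl3 was lower in level, at 0.249, 0.620 and 0.488 against 3.40, 7.96 and 2.40 FPKM, with a difference of 1.83 (SE 0.326, limma adjusted p = 0.00744). It passed the filter on low values only through the libraries labelled Sphk1/2gc-/-, as did Cxcl2. Cxcl1, Cxcl5 and Cxcl3 were thus called higher in the libraries labelled Sphk1/2gc-/-, 3 of 7 listed genes tested, against 4.19% of all genes. As the list was chosen with results of these data known, nothing is read from such counts. Cxcl1, Cxcl5 and Cxcl3 were called under each of 14 alternatives, with limma adjusted p up to 0.0159, 0.0262 and 0.0421. Cxcl2 was at 0.0901, 0 and 0.275 FPKM in WT, against 0.489 to 0.933 FPKM in the libraries so labelled, and its difference of 0.57 stayed below a fold change of 2. Of the 7 genes tested from the list of 17, 5 had every labelled knockout library above every WT library, as did 18.2% of all genes. Cxcr2, which encodes the receptor for these ligands, had at most 3 reads in each cumulus cell library. The same held for Csf3r, which encodes the receptor for granulocyte colony-stimulating factor.

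**Figure D4:**
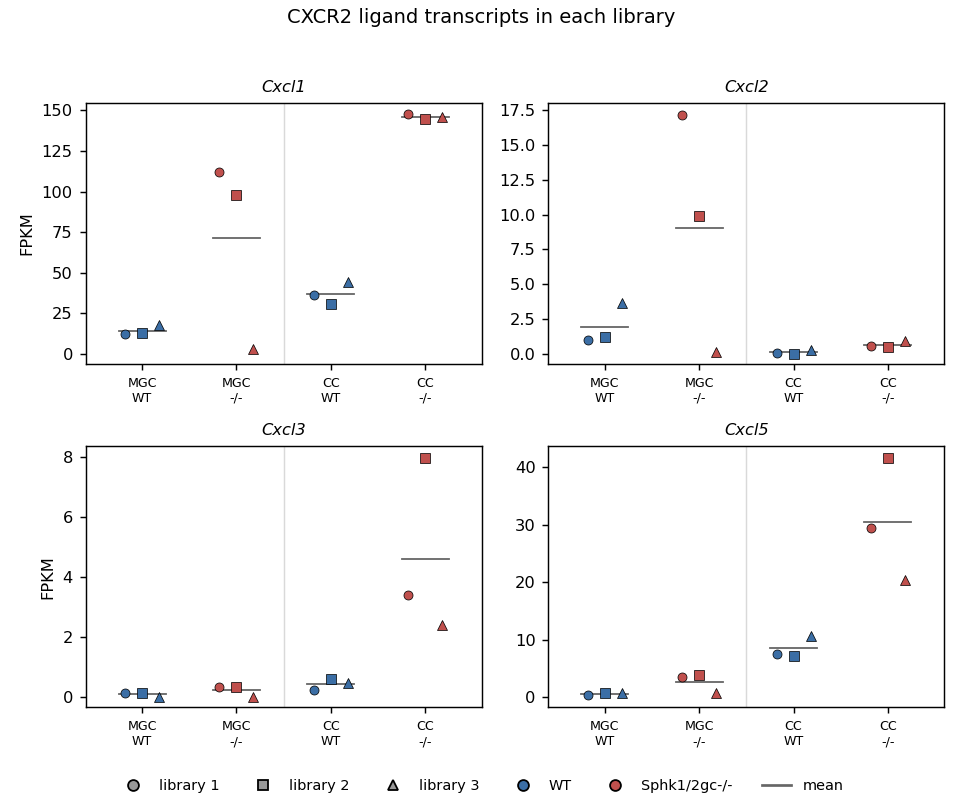
FPKM of the CXCR2 ligand transcripts in each library, by cell type and genotype (CC, cumulus cells; -/-, Sphk1/2gc-/-; horizontal lines, group means; each panel has its own vertical axis). Cxcl1 is at 98.0 and 112 FPKM in Sphk1/2gc-/- MGC libraries 1 and 2 but at 3.33 FPKM in library 3, while the 3 cumulus cell libraries labelled Sphk1/2gc-/- lie at 145 to 148 FPKM, above all WT libraries.

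Among the other lists in cumulus cells, few neutrophil genes were measurable. Of 12 granule genes that the cumulus cell table lists, 3 (Ngp, Lcn2 and Lyz2) were tested, with limma adjusted p of 0.213 to 0.364. Ngp was at 3.86, 0 and 0.233 FPKM in WT, against 0.124 FPKM or less in the libraries labelled Sphk1/2gc-/-, which is again a value of WT library 1. Lyz2 was at 34.7, 1.01 and 5.84 FPKM in WT, against 35.6, 4.58 and 47.4 FPKM in the libraries so labelled, and did not follow the members. Of 25 listed genes of mature neutrophils, 5 were tested and 1 was called: Slfn4 fell, at 23.8, 11.7 and 16.5 against 4.85, 3.15 and 3.41 FPKM, a difference of −1.89 (SE 0.257, limma adjusted p = 0.00287), with adjusted p of 0.0455 or less under 14 alternatives. As Slfn4 overlapped between the genotypes in MGCs, its pattern was not that of the members. Cyba rose, at 1.26, 1.07 and 1.70 against 2.45, 4.33 and 4.62 FPKM, by 1.01 (SE 0.215, limma adjusted p = 0.0138), but its call was lost in 6 of 14 alternatives, among them those without WT library 1 or 2 or without knockout library 2 or 3 (adjusted p from 0.00262 to 0.0777). C1qa and C1qb, subunits of complement C1q made by macrophages, rose by 1.33 and 1.96 (limma adjusted p = 0.0467 and 0.0309), each lost in 7 of 14 alternatives that included leaving out any 1 library but knockout library 2. C1qa passed the filter on low values only through the libraries labelled Sphk1/2gc-/-. The 11 macrophage genes summed to 2.28 to 4.88 FPKM in WT and to 18.9, 6.52 and 22.4 FPKM in those labelled Sphk1/2gc-/-. Of the red cell genes Alas2, the first enzyme of haem synthesis in erythroid cells, fell, at 4.39, 4.03 and 4.41 against 0.641, 0.358 and 0.0434 FPKM, by 1.99 (limma adjusted p = 0.000771), having passed that filter only through WT. The globin genes, by contrast, overlapped between the labelled genotypes. The remaining listed genes that were called in cumulus cells belong to granulosa and theca cells, namely Cyp19a1, Nr5a2, Inhba and Cyp17a1, with differences of −2.38, −1.50, −1.35 and −1.24. The call for Cyp17a1 was lost in 8 of 14 alternatives and that for Inhba in 2.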

How the data were processed

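RNA of MGCs and cumulus cells from both genotypes, taken 2 h post-hCG, was sequenced with an unstranded kit, in 12 libraries of 4 groups, 3 per group. The authors deposited FPKM values in 1 table per cell type (29101 and 33137 genes, 26382 in both). HISAT2 and GRCm38 are named in the submitters' processing notes, and the counting tool is not given in the sources used here. All columns were used. Gene names, positions and exon lengths were taken from GENCODE M21. Multiplied by exon length, the values came out as whole reads for 90.6% to 92.1% of values above 0 per library (tolerance 0.02 reads), giving 16100365 to 19761604 reads, and Retnlg is among the genes for which it did not.

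The 9 members, the lists and the rule for named genes were chosen with earlier results of these data known. Named are the members, listed genes that were called, up to 4 more per list with the highest mean, and the 5 genes most like the members. Each cell type was fitted alone with limma 3.58.1 (R 4.3.3) on log2(FPKM + 1) with a variance trend, for genes averaging 0.5 FPKM or more in either genotype, and p-values were adjusted over all genes tested (Benjamini-Hochberg). Calls required an adjusted p no higher than 0.05 and at least a 2-fold change. The test planned for read counts was not needed, as the files hold FPKM. SE is limma's moderated standard error. The fit was tested on simulated data. Alternatives were another centring, pseudocount or filter, no trend, limma voom on the recovered reads, a replicate block, and leaving libraries out. Deviations of MGC libraries of the same number from their genotype means correlated at 0.220, 0.158 and 0.224, all above the limit of 0.1, so the replicate number was also fitted as a block; the labels state no shared animal.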

Additional observations from a re-analysis of the deposited data

How the results depend on the processing

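In MGCs 6 genes were called. Limma voom on recovered reads called 0. Its genes at an unadjusted p of 0.05 or less and at least a 2-fold change were 139 higher and 497 lower. The count called was 1 after shifting the libraries to a common median, 1 with no filter and 3 with the replicate block (2 higher, 1 lower). It was 0 to 170 without 1 library. The highest count was without Sphk1/2gc-/- library 3, and libraries 1 and 2 alone gave 477. In cumulus cells 981 were called, 1674 with a pseudocount of 0.1, 1927 by voom on recovered reads and 757 to 1305 without 1 library. The cause of these changes was not tested. With the replicate block, which rests in cumulus cells only on a shared number (correlations of −0.148, −0.0511 and 0.115), 962 were called there. S100a9, which passed the filter on low values only through WT, was still called, and Cyp17a1 was not. In MGCs the block ended the call of Asprv1 and added that of Ngp (limma adjusted p = 0.0313).

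The differences of the 8 members tested in MGCs kept their direction under all 14 alternatives. They were larger for Clec4d (−3.18 and −3.65), Csf3r (−2.39 and −2.79), Cxcr2 (−2.02 and −2.38), Mmp8 (−2.02 and −2.18) and Mmp9 (−2.64 and −2.90) with a pseudocount of 0.1 and on recovered reads. S100a8 in cumulus cells passed the test only with the pseudocount of 0.1. Depth limits cumulus cells, where 3 of the 9 members had at most 3 reads in every library and 7 had at most 3 in each library labelled Sphk1/2gc-/-.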
